A study of Homo sapiens with 16 samples.

Results

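Acetylation of lysine 27 of histone H3 (H3K27ac) was examined at 10 integrin genes, ITGAV, ITGB1, ITGB3, ITGB5, ITGB6, ITGB8, ITGA2, ITGA3, ITGA5 and ITGA6, of the 20033 protein-coding genes of the GENCODE annotation of hg38. The genes were chosen by name, and for each the peaks, the bases under peaks and the highest fold enrichment over input were read from every peak list within 2 kb of the start site of the canonical transcript and within the gene body extended by 50 kb on each side, here called the window. Peaks of all lists were also merged into 55219 consensus regions, each with a peak in at least 2 lists, of which 87 touched these windows. The study profiled H3K27ac by chromatin immunoprecipitation and sequencing in 2 triple-negative breast cancer cell lines, MDA-MB-231 and Hs578T, as control cells and as Fn14 KO cells, in which the receptor of the cytokine TWEAK, Fn14 (product of TNFRSF12A), was targeted with sgRNA guides in TLCV2, a lentiviral vector with inducible Cas9. All cells were serum starved for 8 h, and then left untreated or given TWEAK at 10 ng/ml for 48 h with a fresh dose after 24 h. Each of the 8 groups had 2 lists, 16 in all. The study's methods call its ChIP-seq replicates biological, and the labels do not name the culture of each list, so p-values measure the spread between these samples. The methods describe different sgRNA guides for the KO cells, and the labels name neither the guide nor a clone for any list. Each list came from a bulk population, in which fewer acetylated cells and less acetylation per cell cannot be told apart.

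Integrins are heterodimers of an alpha and a beta chain that anchor cells to the extracellular matrix and signal through adhesion complexes. ITGAV encodes the alpha v chain, which pairs with the beta chains encoded by ITGB1, ITGB3, ITGB5, ITGB6 and ITGB8 and binds matrix proteins such as vitronectin and fibronectin, and the alpha v dimers with beta 6 and beta 8 are known for releasing active TGF-beta from its latent complex. The other alpha chains described here pair with beta 1 and bind collagen (ITGA2), laminins (ITGA3 and ITGA6, the latter also with beta 4) or fibronectin (ITGA5). H3K27ac marks active promoters and enhancers, so a region acetylated away from a start site is a candidate regulatory region whose target gene peak lists cannot name.

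The lists held 39544 to 47197 peaks covering 64.2 to 88.9 Mb. They carry no read counts, so depth is unknown. Peaks were weaker in the MDA-MB-231 Fn14 KO lists, whose median -log10 q-value was 5.80 to 7.69 against 9.44 to 10.8 in MDA-MB-231 control cells, while Hs578T Fn14 KO lists (8.24 to 8.61) overlapped with Hs578T control lists (7.86 to 9.04). Start sites of VIM, CD44, AXL and ZEB1, markers of mesenchymal-like breast cancer lines, had a peak in all 16 lists, as did the epithelial gene EPCAM at low enrichment (3.16 to 5.61). The luminal genes ESR1, PGR and GATA3, the epithelial gene CDH1 and the leukocyte gene PTPRC had none in any list, and FOXA1 had a peak in 2. TNFRSF12A itself had a start-site peak in all 16 lists (16.2 to 38.2), which checks nothing about the knockout, since a peak list shows no edited bases. Per the study's methods, the KO cells were picked by western blot and checked by Sanger sequencing.

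Sequences of some of the regions on which the results below turn are shown first. Each is the central 300 bases of a consensus region on the plus strand of hg38, named by the distance of the region's centre from the start site of the member. The ITGAV region 45.6 kb upstream had the largest called increase among the regions of its window with a peak in every list. The regions 34.9 kb upstream of ITGAV and 55.5 kb into ITGA2 gained a peak with TWEAK in control cells of both lines, and the region 112.5 kb into ITGB5 lost its peak in both. The promoter stretches of ITGAV and ITGB8, the part of the upstream 250 bases that lies in no annotated UTR, come from RefSeq (GRCh38.p14), in which 8 of the 10 members were matched. Capitals mark matches, on either strand, to AP-1 (TGANTCA), RELA (GGANTTTCC or GGGNTTTCC), TEAD (GGAATG) or the general NF-kB consensus, which was added after these windows had been read.
ITGAV 45.6 kb upstream, chr2:186544318-186544617: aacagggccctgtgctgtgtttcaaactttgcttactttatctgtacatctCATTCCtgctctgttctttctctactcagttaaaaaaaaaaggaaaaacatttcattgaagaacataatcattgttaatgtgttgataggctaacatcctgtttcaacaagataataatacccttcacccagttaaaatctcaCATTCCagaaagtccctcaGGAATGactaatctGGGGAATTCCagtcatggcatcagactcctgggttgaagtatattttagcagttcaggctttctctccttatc
ITGAV 34.9 kb upstream, chr2:186555008-186555307: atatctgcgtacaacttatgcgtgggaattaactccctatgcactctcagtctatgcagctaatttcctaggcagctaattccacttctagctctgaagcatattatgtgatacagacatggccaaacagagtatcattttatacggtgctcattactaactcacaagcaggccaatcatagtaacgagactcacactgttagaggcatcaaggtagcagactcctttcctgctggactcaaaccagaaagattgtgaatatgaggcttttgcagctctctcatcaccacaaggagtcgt
ITGA2 55.5 kb downstream, chr5:53044670-53044969: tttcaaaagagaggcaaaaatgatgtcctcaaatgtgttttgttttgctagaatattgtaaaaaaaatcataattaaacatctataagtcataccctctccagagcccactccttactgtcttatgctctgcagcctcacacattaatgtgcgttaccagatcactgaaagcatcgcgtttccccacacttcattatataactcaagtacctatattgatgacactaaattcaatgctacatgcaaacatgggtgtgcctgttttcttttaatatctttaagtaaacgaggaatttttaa
ITGB5 112.5 kb downstream, chr3:124774741-124775040: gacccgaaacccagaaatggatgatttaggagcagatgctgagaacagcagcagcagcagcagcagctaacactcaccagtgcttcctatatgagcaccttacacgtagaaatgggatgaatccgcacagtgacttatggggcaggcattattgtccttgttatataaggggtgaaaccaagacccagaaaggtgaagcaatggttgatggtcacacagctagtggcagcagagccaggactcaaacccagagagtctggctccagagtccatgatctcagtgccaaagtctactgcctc
ITGAV promoter, chr2:186589806-186590009: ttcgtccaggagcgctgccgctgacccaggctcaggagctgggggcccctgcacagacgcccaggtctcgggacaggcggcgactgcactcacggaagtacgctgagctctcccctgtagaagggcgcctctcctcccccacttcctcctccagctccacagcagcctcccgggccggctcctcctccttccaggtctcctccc
ITGB8 promoter, chr7:20330650-20330701: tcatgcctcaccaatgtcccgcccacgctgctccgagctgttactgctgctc

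The ITGAV window 45.6 kb upstream held 3 TEAD matches and 1 NF-kB match. The other windows printed here held none, apart from 1 NF-kB match within the full upstream stretch of ITGB8. Among the 87 member regions 11 central windows held an AP-1 match, or 12.6% against 26.1% of all 55219 regions and 6.57% of 35116 promoters. TEAD matches occurred in 17.2% of member windows against 19.2% of all and 11.9% of promoters, RELA matches in 4.6% against 3.75% and 3.08%, and NF-kB matches in 6.9% against 8.69% and 9.96%. A match describes letters only.

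Start-site peaks were present at 9 of the 10 genes. The highest fold enrichment, a mean per base over a peak and so a per-length scale, had its highest median over the 16 lists at ITGA3 (18.5, range 12.7 to 21.2), followed by ITGB1 (12.2, 9.71 to 16.3), ITGB5 (11.0, 7.82 to 13.4), ITGAV (10.3, 8.08 to 13.4), ITGA2 (8.55, 5.43 to 13.4), ITGB8 (6.47, 4.27 to 9.70), ITGA6 (6.20, 4.78 to 9.10), ITGA5 (5.33, 4.21 to 7.54) and ITGB3 (3.62, 0 to 6.23). Every neighbour in that order had an overlapping range. ITGB3 lacked a start-site peak in 1 list, MDA-MB-231 Fn14 KO untreated replicate 2, and ITGB6 lacked one in all 16, although its window held 5 to 7 peaks in every list. The start site of ITGB3 is shared to within 0.07 kb with that of a readthrough gene, ENSG00000259753, and the values there belong to both.

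**Figure D1:**
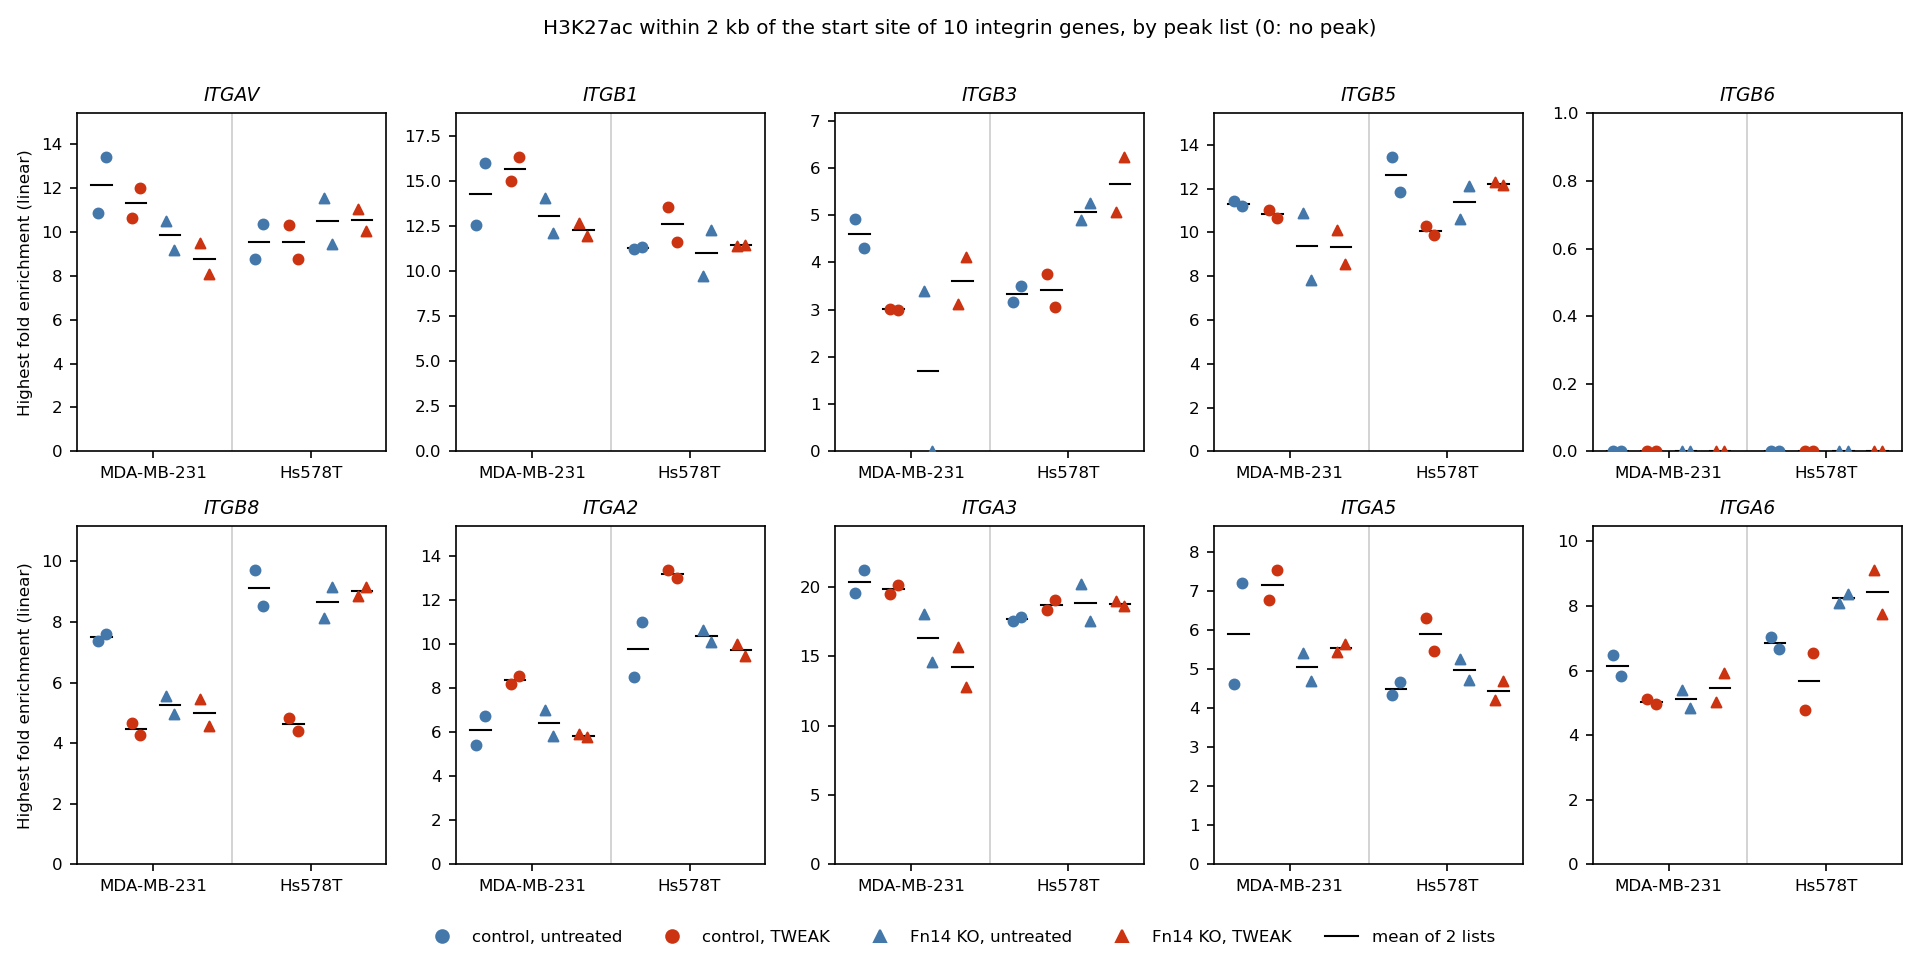
Highest H3K27ac fold enrichment (linear axis) of peaks within 2 kb of the start site of each of the 10 integrin genes. Each point is 1 peak list (circles control, triangles Fn14 KO, colour for untreated or TWEAK), short lines are means of 2 lists, and a list without a peak is drawn and averaged as 0. ITGB8 is lower and ITGA2 higher in the control TWEAK lists of both lines, ITGAV shows no such step, and ITGB6 has no peak.

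The change with TWEAK at ITGAV lay far upstream of its start site. The region 45.6 kb upstream (chr2:186542048-186546888, 4841 bp, between protein-coding genes, with ITGAV as the nearest coding start site) had a highest fold enrichment of 17.1 and 20.3 in untreated and 39.9 and 39.4 in TWEAK-treated MDA-MB-231 control cells, and of 12.6 and 11.4 against 27.1 and 27.6 in Hs578T control cells. In Fn14 KO cells the values were 18.1 and 18.8 untreated and 16.6 and 16.5 with TWEAK in MDA-MB-231, and 12.5 and 11.6 against 12.3 and 14.4 in Hs578T. The control TWEAK lists thus stood above all other lists of their line, with no overlap. The increase in control cells was 1.14 ± 0.09 (log2, SE, limma, adjusted p = 1.56e-17), the 405th largest of 28337 regions, and it was 1.09 in MDA-MB-231 cells and 1.19 in Hs578T. In Fn14 KO cells the difference was 0.00 ± 0.09, and the effect of TWEAK in control minus Fn14 KO cells was 1.14 ± 0.13 (limma adjusted p = 5.24e-11).

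A smaller region 34.9 kb upstream (chr2:186554293-186556023) had a peak in the 4 control TWEAK lists and in no other, at 3.20 and 3.22 in MDA-MB-231 cells and 4.25 and 3.65 in Hs578T. By the same rule of a peak in both TWEAK lists and neither untreated list, 3 more ITGAV regions were gained in Hs578T control cells, 17.7 and 14.4 kb upstream and 107.7 kb downstream of the start site. The region 14.4 kb upstream had peaks in 13 lists, among them all 8 Fn14 KO lists (2.75 to 4.37). The region 17.7 kb upstream had peaks in 4 lists and the region 107.7 kb downstream in 10. Both thus also had peaks outside the Hs578T control TWEAK lists. The region 107.7 kb downstream lies 3.7 kb from the start site of FAM171B.
At the ITGAV start site itself the values were 10.9 and 13.4 untreated and 10.6 and 12.0 with TWEAK in control MDA-MB-231 cells, and 8.75 and 10.4 against 10.3 and 8.79 in Hs578T control cells. These overlapped in both lines, and the difference was -0.05 ± 0.11 (limma adjusted p = 0.808).

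**Figure D2:**
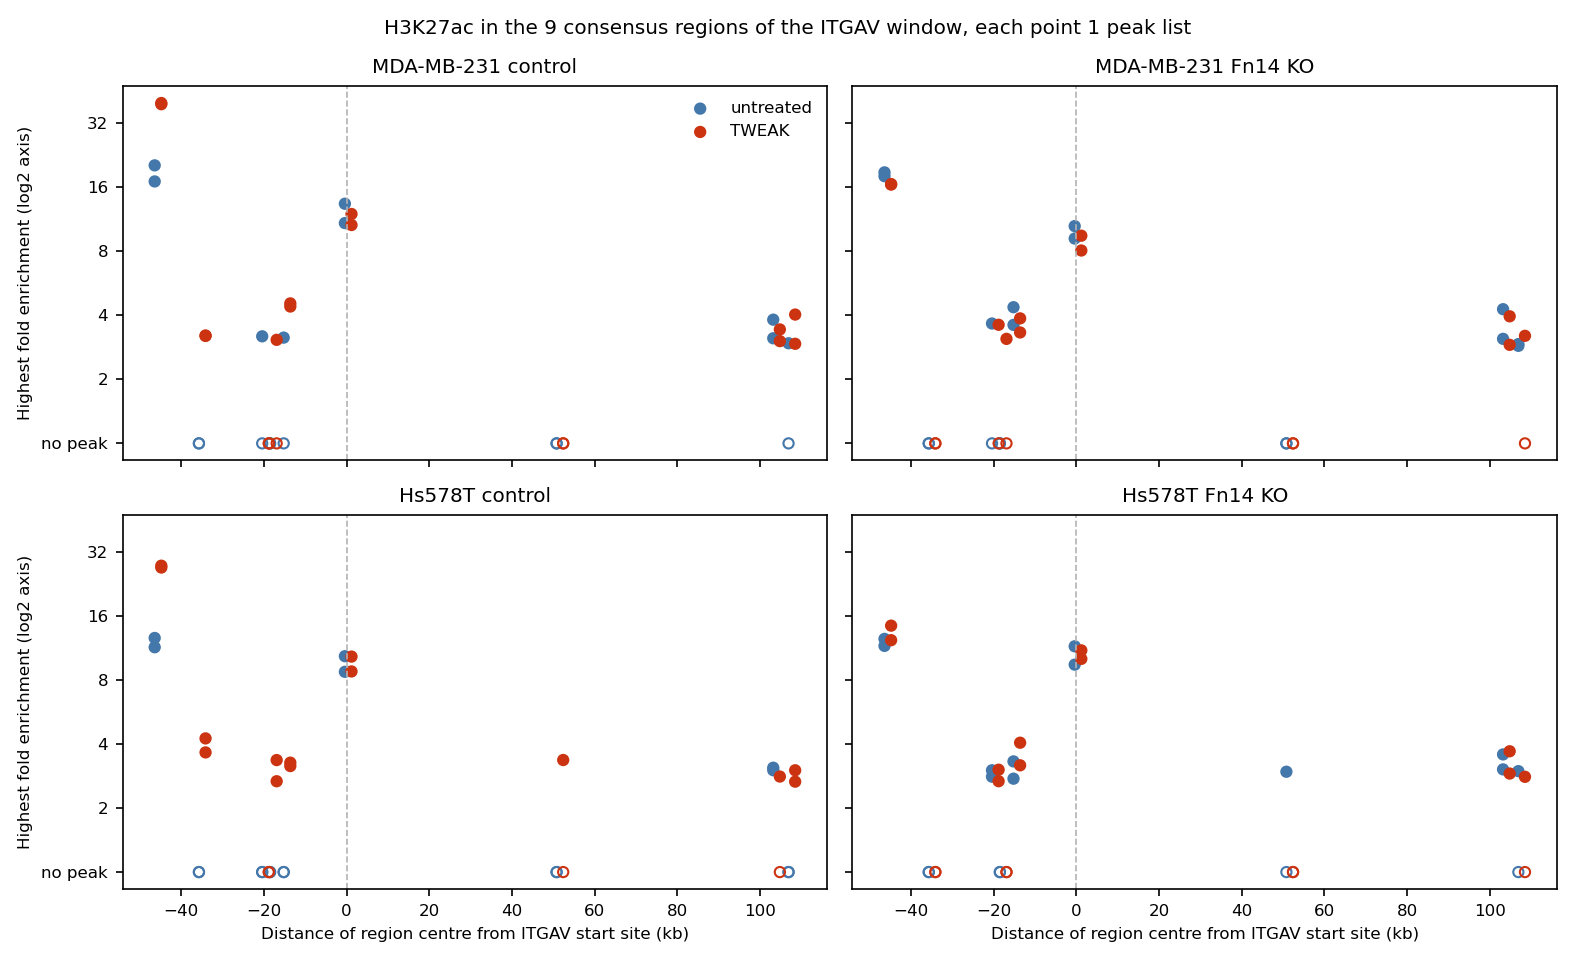
Highest fold enrichment (log2 axis) in the 9 consensus regions of the ITGAV window against the distance of the region's centre from the ITGAV start site in kb, in 4 panels for line and genotype. Each point is 1 peak list, open points at the bottom are lists without a peak, and untreated and TWEAK points are set slightly apart. At -45.6 kb the TWEAK points stand above the untreated points only in the 2 control panels (39.9 and 39.4, and 27.1 and 27.6), and at the start site they overlap in every panel.

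Over the whole ITGAV window, the length under peaks was 5.56 and 6.72 kb untreated and 8.40 and 9.27 kb with TWEAK in control MDA-MB-231 cells, and 5.75 and 5.77 kb against 10.3 and 12.0 kb in Hs578T control cells. Fn14 KO lists held 7.99 and 6.36 kb untreated against 6.52 and 6.89 kb in MDA-MB-231, and 8.43 and 8.05 kb against 8.53 and 7.42 kb in Hs578T. Groups were apart in control cells of both lines, overlapped in the KO cells, and the untreated Hs578T KO lists stood above the untreated Hs578T control lists. The difference in control cells was 0.65 ± 0.09 on the log2(kb + 1) scale (limma adjusted p = 0.000261), in Fn14 KO cells -0.06 ± 0.09 (limma adjusted p = 1.0), and the difference between these effects 0.71 ± 0.13 (limma adjusted p = 0.00534). The effect was 0.47 in MDA-MB-231 cells and 0.84 in Hs578T, and the lines did not differ in it beyond the threshold (0.38 ± 0.18, limma adjusted p = 1.0). It rested on the flanks: with 20 kb flanks it was 0.36 (limma adjusted p = 0.0690), and within the gene body alone 0.00. In MDA-MB-231 alone the call (limma adjusted p = 0.0391) was lost when any of 11 of the 16 lists was left out, with adjusted p up to 0.271 (limma).

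**Figure D3:**
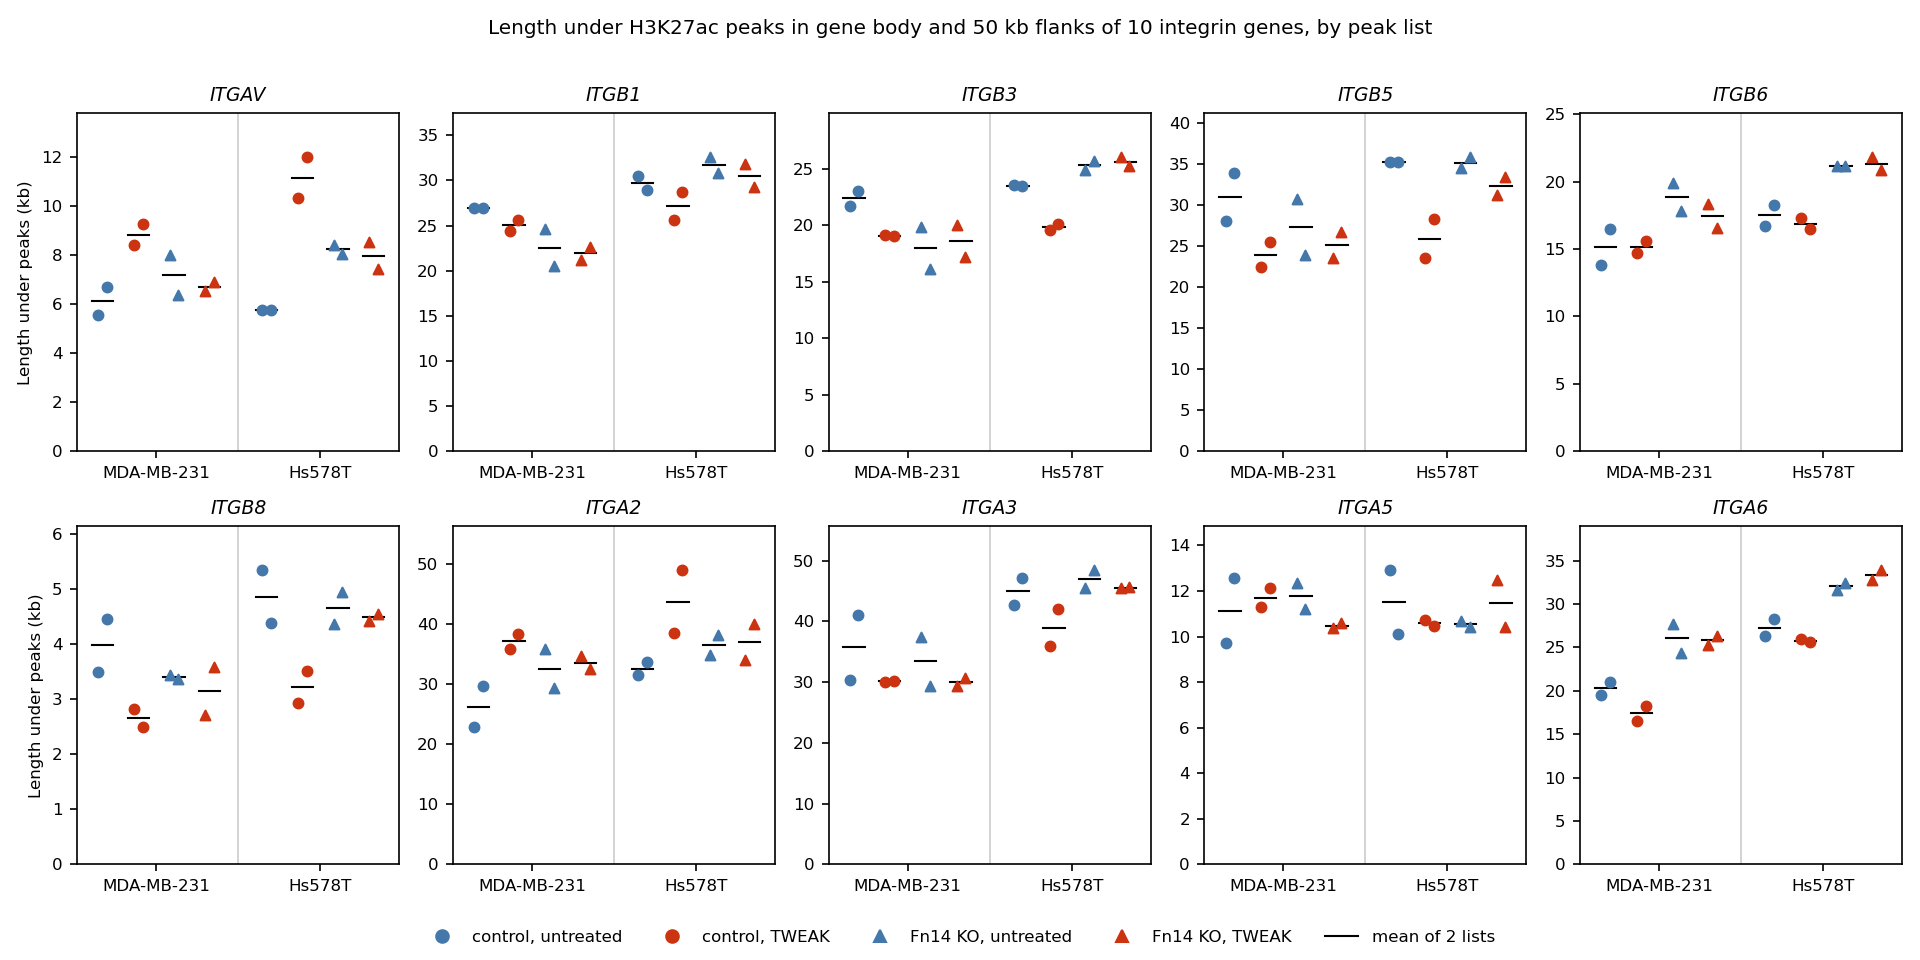
Length under H3K27ac peaks (kb, linear axis) in the gene body and 50 kb flanks of each of the 10 integrin genes, with symbols and lines as in the plot of start-site enrichment. The ITGAV panel shows the control TWEAK lists (8.40 to 12.0 kb) above the control untreated lists (5.56 to 6.72 kb) and the ITGB8 and ITGB5 panels show the reverse within each line.

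Across all members, window length passed the threshold (limma adjusted p under 0.05) for TWEAK in control cells at 5 of 10 genes, where 17.9% of all 17915 genes passed. ITGAV and ITGA2 rose and ITGB8, ITGB5 and ITGB3 fell. At start sites 2 of the 9 members that had a peak in at least 2 lists passed, against 17.9% of 12548 genes. Of the 49 member regions with a peak in all 16 lists, 22 passed, 14 higher and 8 lower, against 42.1% of all 28337 such regions, so their share was near that of all regions. Dividing each list by its median moved that split to 12 higher and 13 lower. In Fn14 KO cells limma called 0 members and 0 features of any kind (0%), and the members had 0 at an unadjusted p under 0.05 by any of the 3 measures, against 318 genes for window length, 357 for start sites and 880 regions over all features.

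The difference between the TWEAK effects in control and Fn14 KO cells was called at 1 member for window length (4.93% of all genes), at 2 for start sites (7.41%) and at 17 of 49 regions (28.6%), 11 with a more positive and 6 with a more negative effect in control cells. An exact permutation test of this difference, with 1296 arrangements and 0.00154 as its smallest p, called 0 features of any kind after adjustment, the members included, and 2287 genes for window length, 2161 for start sites and 7811 regions had an unadjusted permutation p under 0.05.

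**Figure D4:**
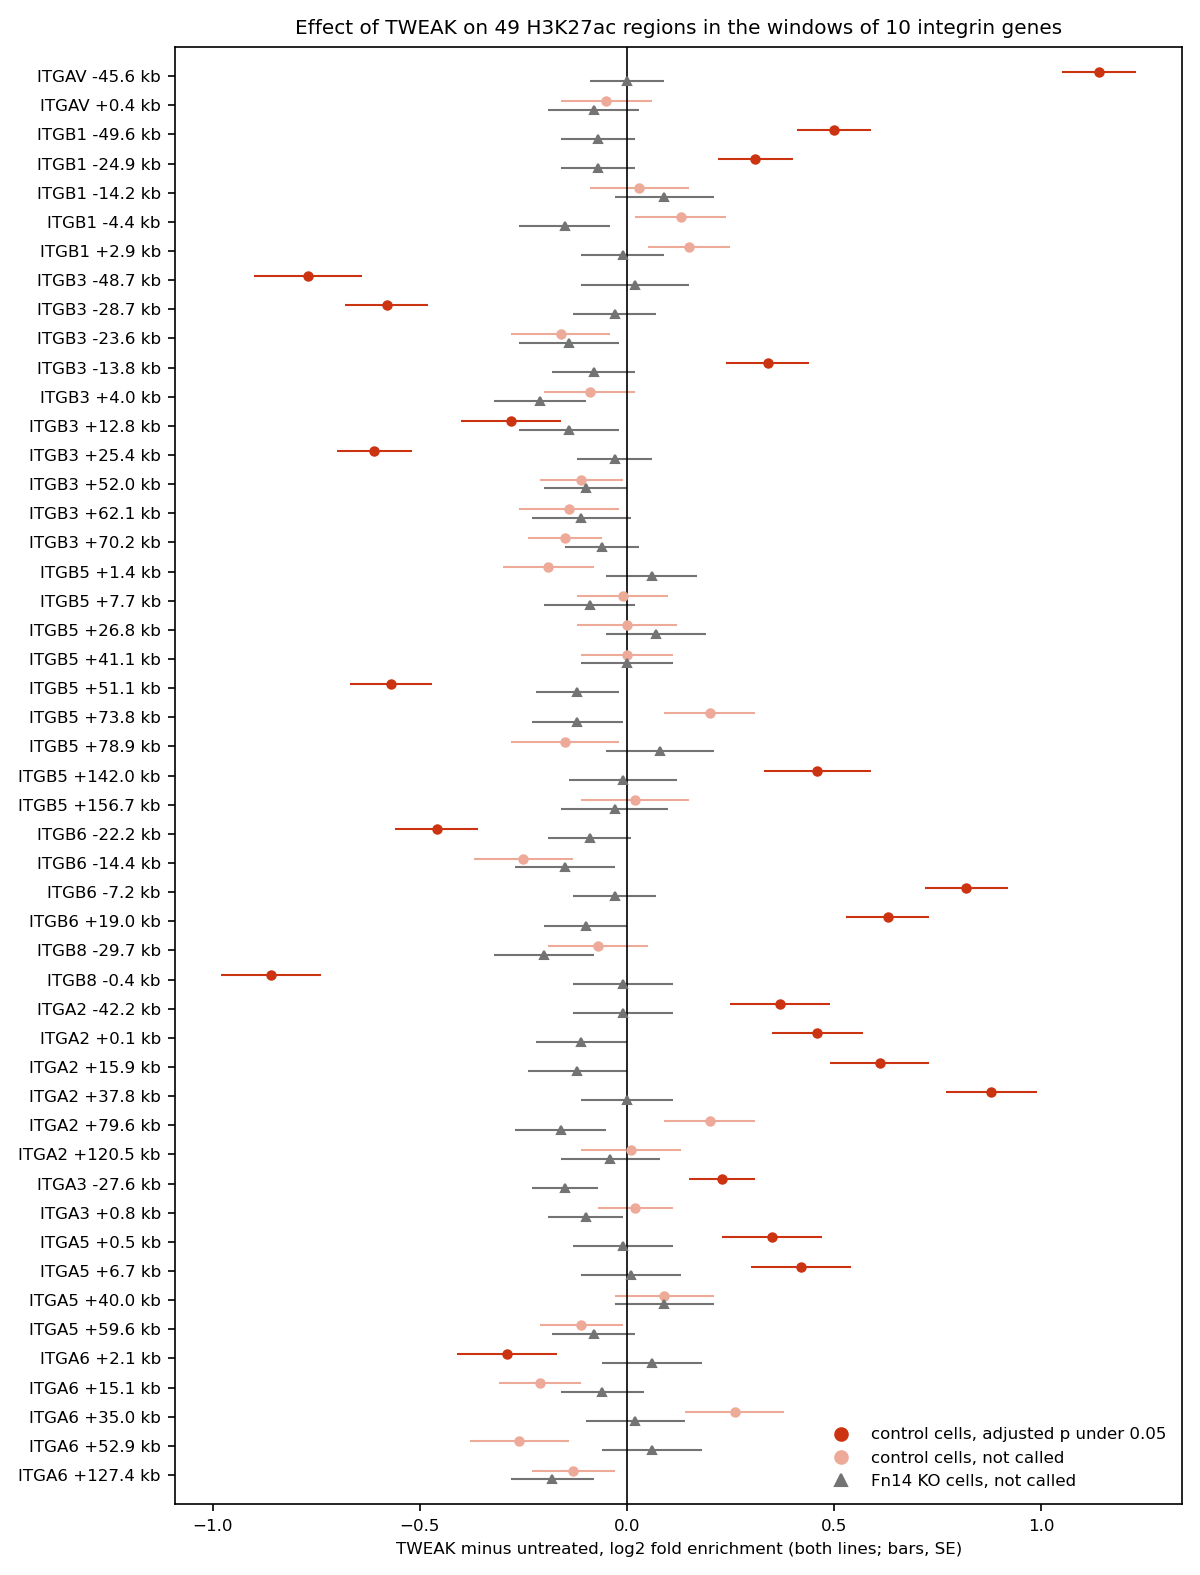
Difference TWEAK minus untreated in log2 fold enrichment, mean of both lines, with its SE (bars), for the 49 regions with a peak in all 16 lists, named by gene and distance from its start site in kb. Filled red circles are control cells with a limma adjusted p under 0.05, pale circles control cells above it, and grey triangles Fn14 KO cells. The triangles lie between -0.21 and 0.09, and the circles run from -0.86 at ITGB8 to 1.14 at ITGAV.

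ITGB8 showed the opposite change, and at its start site. The start-site peak (region centre 0.4 kb upstream, chr7:20329107-20331867) reached 7.39 and 7.60 untreated and 4.67 and 4.27 with TWEAK in control MDA-MB-231 cells, and 9.70 and 8.55 against 4.84 and 4.40 in Hs578T control cells. In Fn14 KO cells it was 5.56 and 4.98 against 5.46 and 4.56 in MDA-MB-231, and 8.14 and 9.17 against 8.85 and 9.17 in Hs578T. Control groups did not overlap in either line, and KO groups did in both, although the untreated MDA-MB-231 KO lists, whose median -log10 q-values were lower, already stood below the untreated control lists. The decrease in control cells was -0.86 ± 0.09 at the start site (limma adjusted p = 5.95e-05), the 314th lowest of 12548 genes, and the effect in control minus KO cells was -0.86 ± 0.13 (limma adjusted p = 0.00232). As a region, the same peak fell by 0.75 in MDA-MB-231 (limma adjusted p = 0.000218) and by 0.98 in Hs578T (limma adjusted p = 2.79e-06). The other ITGB8 region, 29.7 kb upstream, did not pass (-0.07 ± 0.12).

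Peak length in the ITGB8 window was 3.50 and 4.46 kb untreated and 2.82 and 2.49 kb with TWEAK in control MDA-MB-231 cells, and 5.34 and 4.38 kb against 2.93 and 3.52 kb in Hs578T control cells. The groups did not overlap, and the difference was -0.46 ± 0.10 (limma adjusted p = 0.00648). In Fn14 KO cells it was -0.07 ± 0.10 (limma adjusted p = 1.0), and the difference between these effects did not pass (-0.39 ± 0.14, limma adjusted p = 0.144).

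ITGB6 had no start-site peak, and its window carried changes in both directions. The region 7.2 kb upstream, between protein-coding genes, reached 10.2 and 11.6 untreated and 21.5 and 20.3 with TWEAK in control MDA-MB-231 cells, and 10.4 and 11.6 against 17.2 and 18.1 in Hs578T control cells. Fn14 KO lists held 9.87 to 11.9 in MDA-MB-231 cells and 12.9 to 13.8 in Hs578T. All 4 control TWEAK lists were above every other list, and the increase was 0.82 ± 0.10 (limma adjusted p = 8.11e-11), with 0.85 ± 0.14 for control minus KO (limma adjusted p = 1.18e-06). An intronic region 19.0 kb downstream rose by 0.63 ± 0.10 (limma adjusted p = 1.56e-07), and the region 22.2 kb upstream fell by 0.46 (limma adjusted p = 0.000151). Another intronic region, 43.5 kb downstream, gained a peak in control cells of both lines, at 3.28 and 3.36 in MDA-MB-231 cells and 3.32 and 4.32 in Hs578T, and was also present in MDA-MB-231 Fn14 KO untreated replicate 1 (3.23). Summed over the window the length under peaks did not pass (-0.02 ± 0.07, limma adjusted p = 0.884).

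ITGB3 and ITGB5, the beta chains of the classical vitronectin receptors, had shorter peak coverage after TWEAK. The ITGB3 region 25.4 kb into the gene (chr17:47276931-47281522, intronic) went from 30.1 and 29.3 to 18.3 and 18.4 in MDA-MB-231 control cells and from 22.3 and 21.2 to 15.4 and 14.9 in Hs578T control cells. Its Fn14 KO lists were at 16.2 and 14.0 against 14.7 and 12.4 in MDA-MB-231 cells and at 22.7 and 22.7 against 24.1 and 24.5 in Hs578T. No control groups overlapped, and the MDA-MB-231 KO lists were low with and without TWEAK. The decrease was -0.61 ± 0.09 (limma adjusted p = 4.67e-08), and the effect in control minus KO cells -0.58 ± 0.13 (limma adjusted p = 0.000248). Regions 48.7 and 28.7 kb upstream also fell, by 0.77 and 0.58, but both lie in the gene body of MYL4 and nearer to its start site, and the region 13.8 kb upstream rose by 0.34 (limma adjusted p = 0.00295).

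Peak length in the ITGB3 window was 21.7 and 23.1 kb untreated against 19.1 and 19.1 kb with TWEAK in control MDA-MB-231 cells, and 23.5 and 23.4 kb against 19.6 and 20.1 kb in Hs578T control cells. These groups did not overlap, but the call (-0.23 ± 0.07, limma adjusted p = 0.0446) held in only 5 of the 16 fits that leave out 1 list, with adjusted p up to 0.130 (limma), and was lost with 20 kb flanks, without flanks and under the replicate block. It was made with the MYL4 regions inside the window.

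ITGB5 windows held 28.1 and 33.9 kb untreated and 22.5 and 25.5 kb with TWEAK in control MDA-MB-231 cells, and 35.3 and 35.3 kb against 23.5 and 28.4 kb in Hs578T control cells. Both lines were lower without overlap. Fn14 KO lists held 30.7 and 24.0 kb untreated against 23.5 and 26.7 kb with TWEAK in MDA-MB-231, and 34.5 and 35.8 kb against 31.3 and 33.5 kb in Hs578T. These overlapped in MDA-MB-231 but not in Hs578T, where the TWEAK lists were lower. In KO cells the difference was -0.11 ± 0.09, and that between the effects did not pass (-0.28 ± 0.13, limma adjusted p = 0.269). In control cells the difference was -0.39 ± 0.09 (limma adjusted p = 0.00990). It lost the threshold without MDA-MB-231 control TWEAK replicate 1 (-0.35, limma adjusted p = 0.0525) or Hs578T control TWEAK replicate 1 (-0.33, limma adjusted p = 0.0591), and with peaks at or above the pooled median q-value (-0.29, limma adjusted p = 0.129). The region 51.1 kb into the gene, near the start of a shorter ITGB5 transcript, fell by 0.57 ± 0.10 in control cells (limma adjusted p = 2.57e-06), from 15.6 and 16.5 to 12.0 and 10.9 in MDA-MB-231 cells and from 18.3 and 16.7 to 10.8 and 11.5 in Hs578T. In MDA-MB-231 Fn14 KO lists the highest value anywhere in the window was 12.0 and 9.33 untreated and 10.3 and 8.58 with TWEAK. The untreated KO lists of that line thus already stood below its untreated control lists at this region. In the intronic region 112.5 kb into the gene (chr3:124774502-124775279) peaks of 2.87 and 4.30 in MDA-MB-231 cells and 3.247 and 3.996 in Hs578T were absent from all control TWEAK lists. That region still had peaks in Hs578T Fn14 KO cells with TWEAK (3.11 and 3.84), but also none in MDA-MB-231 Fn14 KO cells with TWEAK. At 142.0 kb, inside the body of UMPS, another region rose by 0.46 (limma adjusted p = 0.00238).

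ITGB1, the partner of most alpha chains, had no called change in its window (-0.11 ± 0.07, limma adjusted p = 0.301) or at its start site (0.15 ± 0.10, limma adjusted p = 0.334). Its region 49.6 kb upstream of the canonical start, which spans the outermost start of the gene record, went from 21.6 and 21.2 to 32.3 and 30.3 in MDA-MB-231 control cells and from 16.7 and 17.0 to 22.1 and 23.9 in Hs578T control cells, against 16.6 to 22.2 in the 8 Fn14 KO lists. TWEAK lists of control cells were above untreated lists in both lines, by 0.50 ± 0.09 (limma adjusted p = 6.55e-06), and the effect exceeded that in KO cells by 0.57 (limma adjusted p = 0.000397). An intronic region 24.9 kb upstream rose by 0.31 (limma adjusted p = 0.00346).

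ITGA2, which encodes the collagen-binding alpha 2 chain, gained enrichment at its start site and along its gene body. The start-site value was 5.43 and 6.76 untreated and 8.21 and 8.55 with TWEAK in control MDA-MB-231 cells, and 8.54 and 11.0 against 13.4 and 13.0 in Hs578T control cells. Fn14 KO lists held 7.01 and 5.85 against 5.94 and 5.77 in MDA-MB-231 cells and 10.7 and 10.1 against 10.0 and 9.46 in Hs578T. Control groups were higher with TWEAK without overlap, while KO groups overlapped in MDA-MB-231 and the 2 TWEAK lists were the lower ones in Hs578T. The increase in control cells was 0.46 ± 0.10 (limma adjusted p = 0.00718) and the effect in control minus KO cells 0.57 ± 0.14 (limma adjusted p = 0.0287). The latter was 0.49 after dividing by list medians (limma adjusted p = 0.0562) and held in 4 of the 16 fits that leave out 1 list.

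Within the ITGA2 gene the broad region centred 37.8 kb downstream (chr5:53015157-53039086) went from 7.32 and 9.01 to 20.1 and 13.4 in MDA-MB-231 control cells and from 9.74 and 11.0 to 16.8 and 17.8 in Hs578T control cells, while the Fn14 KO lists stayed between 9.12 and 11.3. All control TWEAK lists were above every other list. The region spans 23930 bp and each value is that of its highest peak. It thus also depends on where a list splits the region into peaks, and the part of this was not tested. The increase was 0.88 ± 0.11 (limma adjusted p = 2.26e-10), and control minus KO 0.87 ± 0.15 (limma adjusted p = 5.29e-06). The intronic region 15.9 kb downstream rose by 0.61 (limma adjusted p = 1.39e-05). A region 55.5 kb downstream (chr5:53043863-53045777) had a peak in all 4 control TWEAK lists (3.40 and 2.55 in MDA-MB-231, 3.16 and 4.38 in Hs578T) and in no untreated list, but also in TWEAK replicate 2 of each Fn14 KO line (2.83 and 2.64). A region 42.2 kb upstream, within the body of the neighbouring integrin gene ITGA1, rose by 0.37 (limma adjusted p = 0.00693) and missed the threshold without Hs578T control TWEAK replicate 2 (limma adjusted p = 0.0523).

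The ITGA2 window held 22.9 and 29.6 kb under peaks untreated and 35.9 and 38.4 kb with TWEAK in control MDA-MB-231 cells, and 31.5 and 33.6 kb against 38.5 and 49.0 kb in Hs578T control cells. The groups did not overlap (0.45 ± 0.10, limma adjusted p = 0.00720). Fn14 KO lists held 29.4 to 40.1 kb, the difference there was 0.03 ± 0.10, and that between the effects did not pass (0.42 ± 0.14, limma adjusted p = 0.115).

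The alpha chains of laminin and fibronectin receptors had called changes at 1 or 2 regions each but not over their windows. At the ITGA3 start site, where all 4001 bp were under a peak in every list, the values with and without TWEAK differed by 0.02 ± 0.09 (limma adjusted p = 0.910). A region 27.6 kb upstream of ITGA3 reached 48.5, the highest value of any region in these windows, with 44.5 and 43.0 against 48.1 and 45.7 in MDA-MB-231 control cells and 36.5 and 35.1 against 43.6 and 48.5 in Hs578T control cells, and its increase of 0.23 (limma adjusted p = 0.0207) was not called after dividing by list medians. The ITGA5 region 6.7 kb into the gene went from 5.54 and 7.34 to 9.17 and 9.42 in MDA-MB-231 cells and from 7.71 and 7.77 to 9.12 and 10.0 in Hs578T control cells (0.42 ± 0.12, limma adjusted p = 0.00226). The ITGA5 start-site region went from 4.61 and 7.22 to 6.79 and 7.54 in MDA-MB-231 control cells, with overlap, and from 4.35 and 4.67 to 6.32 and 5.48 in those of Hs578T, without. Its increase (0.35 ± 0.12, limma adjusted p = 0.0187) held in 12 of 16 fits that leave out 1 list and was not called after dividing by list medians. As a start-site value the ITGA5 increase did not pass (limma adjusted p = 0.0901). For ITGA6 the start-site region fell by 0.29 (limma adjusted p = 0.0422) without overlap in either line, with the call held in 10 of 16 fits that leave out 1 list, and as a start-site value it did not pass (limma adjusted p = 0.0903). At none of these ITGA5 and ITGA6 regions was the effect in control minus Fn14 KO cells called. As start-site values that difference was 0.36 ± 0.19 at ITGA5 (limma adjusted p = 0.282) and -0.35 ± 0.16 at ITGA6 (limma adjusted p = 0.205). Window lengths of ITGA3, ITGA5 and ITGA6 did not pass (limma adjusted p = 0.151, 0.956 and 0.145).

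Gained and lost regions were counted without a test. In MDA-MB-231 control cells 3 of the 87 member regions were gained (5.58% of all 55219 regions) and 2 lost (4.49%), and in Hs578T control cells 7 were gained (5.09%) and 5 lost (4.65%). In MDA-MB-231 Fn14 KO cells none of the 87 was gained (0.321%) or lost (1.35%), and in Hs578T Fn14 KO cells 1 was gained (1.05%) and 1 lost (0.829%). The 3 regions gained in MDA-MB-231 were those described at ITGAV, ITGB6 and ITGA2, and all were also gained in Hs578T. Of the 87 regions 52 have a member as their nearest coding start site and 35 another gene.

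The effects of TWEAK in control cells of the 2 lines were also compared. For window length TWEAK was called at 1 member in each line, ITGAV, against 7.09% of genes in MDA-MB-231 and 5.44% in Hs578T, and the difference of effects was called at 0 members and 0.0949% of genes. For regions it was called at 18 of 49 in MDA-MB-231 (30.4%) and 15 in Hs578T (25.0%), and the difference at 0 (0.00706%), with 3 member regions at an unadjusted p under 0.05.

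Under TWEAK, Fn14 KO and control cells differed in window length at 3 members (18.6% of genes), with ITGAV lower in KO cells (-0.39 ± 0.09, limma adjusted p = 0.00720) and ITGA6 (0.45 ± 0.06, limma adjusted p = 0.000355) and ITGB6 (0.25 ± 0.07, limma adjusted p = 0.0268) higher. ITGA6 windows held 16.5 and 18.2 kb in control and 25.3 and 26.3 kb in KO cells of MDA-MB-231, and 26.0 and 25.6 kb against 32.8 and 33.9 kb in Hs578T. Untreated ITGA6 windows had the same order without overlap, at 19.5 and 21.1 against 27.7 and 24.4 kb and at 26.3 and 28.3 against 31.7 and 32.5 kb, but did not pass (0.29 ± 0.06, limma adjusted p = 0.0738). The ITGB6 call held in 9 of 16 fits that leave out 1 list and was lost with 20 kb flanks (0.07, limma adjusted p = 0.486), with peaks at or above the pooled median q-value (0.22, limma adjusted p = 0.0676) and under the replicate block (limma adjusted p = 0.0639). The ITGAV difference was not called with 20 kb flanks (-0.02, limma adjusted p = 0.931). In untreated cells 0 members passed for window length (0.575% of genes, 4 members at an unadjusted p under 0.05) or for start sites (9.32%, 2 members). Of the 49 regions 6 passed in untreated cells (12.0% of regions), 1 higher in KO cells and 5 lower, which became 2 and 2 after dividing by list medians. The higher one was ITGB6 19.0 kb downstream (0.29, limma adjusted p = 0.0403), and the ITGB3 region 25.4 kb into the gene (-0.46, limma adjusted p = 0.000340) and the ITGA5 region 59.6 kb downstream (-0.45, limma adjusted p = 0.00111) were the lowest. That ITGA5 region lies 4.8 kb from the start site of GPR84, the nearest coding one. At that ITGB3 region the KO lists were lower in MDA-MB-231, while in Hs578T they were not.

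Start-site enrichment differed under TWEAK at 5 members (39.0% of genes), with ITGB8 (0.56, limma adjusted p = 0.000596) and ITGA6 (0.35, limma adjusted p = 0.0243) higher in KO cells and ITGA2 (-0.48, limma adjusted p = 0.00255), ITGA5 (-0.38, limma adjusted p = 0.0354) and ITGA3 (-0.24, limma adjusted p = 0.0403) lower. All start sites together were lower in KO cells (median -0.18), and after dividing by list medians (median -0.05) ITGA5 and ITGA3 were no longer called (limma adjusted p = 0.181 and 0.344). ITGA6 held in 11 of 16 fits that leave out 1 list. For regions 26 of 49 passed (52.3%), 5 higher and 21 lower in KO cells, which became 10 and 15 after that division. The part of the weaker MDA-MB-231 KO lists in these differences was not tested.

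Hs578T windows held more kb under peaks than MDA-MB-231 windows at 8 of 10 members (50.2% of genes in either direction), with a median difference of 0.26 over the members and 0.16 over all genes. ITGA3 (0.44 ± 0.07, limma adjusted p = 0.000239) and ITGA6 (0.40 ± 0.05, limma adjusted p = 2.43e-05) differed most, while ITGAV (0.16 ± 0.06, limma adjusted p = 0.0505) and ITGA5 (-0.03 ± 0.07, limma adjusted p = 0.728) did not pass. At start sites 4 members passed (42.0%): ITGA2 (0.69), ITGB8 (0.47) and ITGA6 (0.41) were higher in Hs578T, and ITGB1 (-0.25) lower. Of the 49 regions 21 were higher in Hs578T and 4 lower (54.2%). The ITGAV region 45.6 kb upstream was lower in Hs578T (-0.52 ± 0.07, limma adjusted p = 2.06e-10), and its TWEAK effects of 1.09 and 1.19 did not differ between the lines beyond the threshold.

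Other genes of integrin function gave a mixed picture in control cells. Of 16 further integrin subunits 14 were tested for window length, where 17.9% of all 17915 genes passed. ITGAM, a leukocyte alpha chain, rose (1.64 ± 0.13, limma adjusted p = 5.63e-06) and ITGA9 fell (-0.64 ± 0.18, limma adjusted p = 0.0237). These windows include 50 kb flanks and may hold peaks of neighbouring genes, and ITGAM was not among the genes called at start sites. Among 26 ligands, activators and adhesion complex genes, CD47 (0.73), which associates with alpha v beta 3, and the laminin chain gene LAMB3 (0.79) rose, and FN1 (-0.39), the fibronectin gene, and the laminin chain gene LAMA3 (-0.43) fell. At start sites, where 17.9% of all 12548 genes passed, 1 of 5 tested subunits passed, ITGA10 (-1.21, limma adjusted p = 0.0424). So did 7 of 25 ligands and adhesion genes, among them LAMB3 (0.73), FERMT3 (0.96) and PXN (0.57) higher and FN1 (-0.58), TNC (-0.47) and LAMA3 (-0.56) lower.

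By Pearson's r of window length on the log2 scale over the 16 lists, the genes most like ITGAV among 17912 were MOGAT1 (0.939), MEAK7 (0.924), TAF15 (0.917), COPB1 (0.913) and TMEM51 (0.903). The 16 points share lines, treatments and peak numbers, so r is a description. Among the members ITGA2 was closest (0.805), and the rest lay between -0.324 (ITGB8) and 0.178 (ITGB1).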

How the data were processed

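H3K27ac ChIP-seq of 16 samples was analysed from the broad peak lists deposited by the authors. Per the study's methods, reads were trimmed with Trimmomatic, aligned to hg38 with Bowtie2, and peaks called per sample with MACS2 against input, after shearing to 200-500 bp, with blacklisted regions removed. Versions are not given in the sources used here. The deposited columns hold the authors' fold enrichment over input (the ratio used here), -log10 p-value and q-value, and a score.
Start sites and gene bodies were taken from GENCODE 44. Window length was tested as log2(kb + 1), and start-site and region enrichment as log2 fold enrichment with a missing start-site peak set to 1, over genes with peaks in at least 2 lists (regions: all 16), using limma 3.58.1 with trend in R 4.3.3 on 8 groups and Benjamini-Hochberg adjustment, threshold 0.05. The SE and p share the spread over all features. Scripts were tested on simulated data. Tables were made with Python 3.11.15. The region measure was chosen after seeing the data. Members, lists and tests were chosen with earlier results of these data known. All 10 members are named, and of the context lists at most 6 called genes each by smallest p. Replicate numbers did not pair the samples (correlations of deviations -0.004 to 0.105). The labels give no batch. Some sequences and 1 gene of the context lists are not reported here.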

Additional observations from a re-analysis of the deposited data

Results flagged for a closer look

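The results here were picked out because the effect of TWEAK differed between control and Fn14 KO cells by limma's test of that difference (adjusted p under 0.05). Each value is the TWEAK effect in control minus that in Fn14 KO cells on the log2 scale. For window length ITGAV had 0.71. At start sites ITGB8 had -0.86 and ITGA2 0.57, and the regions holding the same peaks (ITGB8, 0.4 kb upstream, and ITGA2, 0.1 kb downstream) gave -0.86 and 0.57.
Among distal regions with a more positive effect in control cells, ITGAV 45.6 kb upstream had 1.14. ITGA2 had 0.87 at 37.8 kb and 0.72 at 15.9 kb downstream, and ITGB6 had 0.85 at 7.2 kb upstream and 0.73 at 19.0 kb downstream. ITGB1 had 0.57 at 49.6 kb and 0.39 at 24.9 kb upstream, ITGB5 0.47 at 142.0 kb downstream, ITGB3 0.42 at 13.8 kb upstream and ITGA3 0.38 at 27.6 kb upstream. In the ITGA3 window the highest values of the MDA-MB-231 Fn14 KO lists were lower with TWEAK.
A more negative effect in control cells was found for ITGB3 at 48.7 kb (-0.79) and 28.7 kb upstream (-0.54) and at 25.4 kb downstream (-0.58), for ITGB5 at 51.1 kb downstream (-0.46) and for ITGB6 at 22.2 kb upstream (-0.37). The ITGB6 value of -0.37 (limma adjusted p = 0.0478) held in 6, the ITGB5 value of 0.47 (limma adjusted p = 0.0419) in 7, the ITGB1 value of 0.39 in 13, the ITGB3 value of 0.42 in 14, the ITGB5 value of -0.46 in 15 and the ITGA2 start-site value of 0.57 (limma adjusted p = 0.0287) in 4 of the 16 fits that leave out 1 list. That ITGA2 value was also lost under the replicate block, with no filter on low values and after dividing by list medians, and the ITGAV window value was lost with 20 kb flanks (0.44, limma adjusted p = 0.201), within the gene body (0.02, limma adjusted p = 0.958) and with peaks at or above the pooled median q-value (0.37, limma adjusted p = 0.0533). None of these was called by the exact permutation test after adjustment over all features, and the part of the weaker MDA-MB-231 Fn14 KO lists in them was not tested.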

How the results depend on the processing

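Of 6429 values of members under an alternative, 5832 kept their direction and side of the threshold, 322 that were called in neither fit changed sign, 187 lost and 85 gained a call, and 3 called values reversed, all within the gene body without flanks: ITGAV -0.01 for TWEAK in MDA-MB-231 control cells, and, for Fn14 KO versus control under TWEAK, ITGAV 0.02 and ITGB6 -0.32. Counts below are of members called, or of member regions gained and lost. The shares over all features are not given for most alternatives, so no count here is a result about the members. The cause of a change was not tested. Depth is unknown, and 2 lists per group limit every test.
Window length: 20 kb flanks gave 3 for TWEAK in control cells and 0 for the difference between genotypes, for MDA-MB-231 and for Hs578T. The gene body alone gave 3 for TWEAK in control cells, 0 for the difference between genotypes, 1 for KO versus control untreated, 1 with TWEAK, 5 between lines and 0 for MDA-MB-231. Lists trimmed to equal peak number gave 1 for KO versus control untreated, 5 with TWEAK and 4 for Hs578T. Peaks at or above the pooled median q-value gave 0 for the difference between genotypes, 2 for MDA-MB-231 and 0 for Hs578T, and no filter on low values gave 0 for MDA-MB-231.
Start sites: peaks at or above the pooled median q-value gave 4 for TWEAK in control cells. The difference between genotypes had 1 with no filter and 1 with values divided by the list median, and KO versus control with TWEAK 3 and 3. Regions: all consensus regions, with no peak set to 1, put 87 member regions to the test instead of 49. They gave 2 for TWEAK in KO cells, 26 for the difference between genotypes and 3 for the difference between lines. Over all 55219 regions that setting called 536, 12804 and 1736. The exact permutation test gave 0 for the difference between genotypes by all 3 measures. It was not run for TWEAK within 1 genotype, where 36 arrangements allow no p below 0.0556, nor for KO versus control, which has the same limit, or within 1 line, where the limit is 0.333.
Gained and lost regions: trimming gave 4 gained and 3 lost in Hs578T control cells and 0 and 0 in Hs578T KO cells, peaks at or above the median q-value 1 and 1, and 0 and 0. A peak over at least 50% of the region gave 0 gained and 10 lost in MDA-MB-231 control, 1 lost in MDA-MB-231 KO, 4 gained in Hs578T control, and 4 gained and 4 lost in Hs578T KO cells. With 20 kb flanks 0 were lost in Hs578T KO cells.
With the replicate block, which the numbers do not warrant, window length in MDA-MB-231 had 0 and the start-site difference between genotypes 1. Over all genes the block called 2575 instead of 3206 for window length with TWEAK in control cells, 568 instead of 883 for the difference between genotypes, 103 became 54 for KO versus control untreated, 1270 became 842 in MDA-MB-231 cells and 975 became 584 in Hs578T.
Leaving out each list in turn, window length gave 3 to 6 for TWEAK in control cells, 1 to 2 for the difference between genotypes, 0 to 1 for KO versus control untreated, 0 to 2 for MDA-MB-231 and 1 to 2 for Hs578T. Start sites gave 0 to 1 for TWEAK in KO cells, 1 to 2 for the difference between genotypes, 0 to 3 for KO versus control untreated and 2 to 6 with TWEAK. Regions gave 11 to 19 in MDA-MB-231 and 2 to 11 for KO versus control untreated. Gained and lost counts, under the looser rule that the remaining list decides, were 3 to 8 and 3 to 6 in MDA-MB-231 control, 0 to 3 and 0 to 3 in MDA-MB-231 KO, 5 to 8 lost in Hs578T control, and 1 to 3 and 1 to 2 in Hs578T KO cells. The lone list of a group was taken to vary like the others.
Over all genes, calls for window length with TWEAK in control cells ranged from 1857 (gene body) to 3985 (trimmed lists) and from 1808 to 4451 without 1 list, and those for the difference between genotypes from 0 (permutation) to 1448 and from 460 to 2078. Start-site calls for KO versus control untreated went from 1169 to 340 after division by list medians and from 204 to 3192 without 1 list, and region calls for that comparison from 3411 to 1844 after division and from 1332 to 5773 without 1 list. That division moved the share of called features that were higher from 61.4% to 41.2% (start sites) and from 61.7% to 48.8% (regions) for TWEAK in control cells, from 70.4% to 50.7% and from 70.4% to 57.8% for the difference between genotypes, from 11.1% to 28.7% and from 19.0% to 37.0% for KO versus control with TWEAK, and for regions from 9.18% to 23.6% for KO versus control untreated, from 63.7% to 50.2% in MDA-MB-231 cells and from 62.4% to 50.4% in Hs578T.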
